A study of Populus tomentosa with 15 samples.

Results

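Plants carry a large family of UDP-glycosyltransferases (UGTs), enzymes that move a sugar from a UDP-sugar donor onto small acceptor molecules. Typical acceptors are flavonoids and other phenolics and the hormones cytokinin, auxin, abscisic acid and salicylic acid, and the added sugar changes how soluble, active and storable the acceptor is. The 4 genes described here, POPTR_0001s05400, POPTR_0009s15190, POPTR_0006s02390 and POPTR_0545s00210, are the UGTs that the study names for its antisense cell line, and they are 4 of the 42635 genes in the expression table. They were chosen by the study on their low level in the antisense line against the wild type, so that comparison is given below as a description without a test. The acceptors that the 4 enzymes use are not stated in the sources used, and the table identifies the genes by number only.

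The libraries came from suspension cells of *Populus tomentosa*, a white poplar, kept in the dark and collected 5 days after subculture, and 5 groups of 3 libraries were sequenced. In *OX*-H cells and *OX* cells the mitochondrial ascorbate peroxidase gene *PtomtAPX*, whose enzyme uses ascorbate to reduce H2O2 to water, was overexpressed from the 35S promoter, and *OX*-H cells also received 10 mM H2O2 for 3 h. In *anti-3*-A cells and *anti-3* cells *PtomtAPX* was lowered by an antisense construct in pBI121, and *anti-3*-A cells also received 1 mM ascorbate (AsA) for 3 h. WT cells carried no construct and were untreated, and neither a treated WT nor a mock treatment is among the libraries analysed here. *anti-3* is 1 transgenic line out of several antisense lines that the study made, and the study's text states that overexpressing cells needed the cytokinin 6-BA in the medium to grow. The medium's part in any *OX* value was not tested. If the other cells grew without 6-BA, medium and construct cannot be told apart where *OX* or *OX*-H is compared with them.

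Library depth, worked back from the expression values, was 15618191 to 21278437 reads (median 17889817). *PtomtAPX* and cell type markers could not be matched to gene numbers, so the labels were not checked against them. Nothing in the labels says whether the 3 libraries of a group are separate cultures, so the p-values measure only the spread between these libraries. In bulk RNA, fewer cells expressing a gene and less RNA per cell cannot be told apart. How reads shared by near-identical genes were counted is not given, which leaves the level of each UGT uncertain to that extent. Levels are in FPKM, that is, reads scaled by gene length and by library total.

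All 4 UGTs were low in *anti-3*, but in *OX* they were in 2 pairs: POPTR_0001s05400 and POPTR_0009s15190 were far below WT there as well, and POPTR_0006s02390 and POPTR_0545s00210 were near WT. All 4 were above *anti-3* in every *anti-3*-A library, where a rise was favoured because the low *anti-3* libraries chose the genes. In *OX*-H, POPTR_0001s05400 stayed at 32.8% of its WT mean, while POPTR_0009s15190 and POPTR_0006s02390 were at 157% and 218% of theirs.

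POPTR_0001s05400 was the most abundant of the 4 in WT. It had 18.3, 17.8 and 18.3 FPKM in *OX*-H, 5.89, 5.62 and 5.31 FPKM in *OX*, 74.9, 67.9 and 68.3 FPKM in *anti-3*-A, 8.74, 6.68 and 8.10 FPKM in *anti-3* and 57.0, 54.5 and 54.4 FPKM in WT. No 2 groups overlapped, and the order of the levels was *OX*, *anti-3*, *OX*-H, WT and *anti-3*-A. The means were 10.1% of WT in *OX* and 14.2% of WT in *anti-3*. These values rest on 159 to 184 reads per library in *OX* and on 1716 to 1875 in WT, over a gene length of 1617 bases worked back with the reads.

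POPTR_0009s15190 had 41.9, 40.7 and 39.8 FPKM in *OX*-H, 10.3, 9.32 and 10.9 FPKM in *OX*, 35.2, 33.6 and 38.1 FPKM in *anti-3*-A, 6.69, 6.19 and 6.68 FPKM in *anti-3* and 29.3, 25.4 and 23.1 FPKM in WT. Again no 2 groups overlapped. The order differed from that of POPTR_0001s05400, with *anti-3* lowest, then *OX*, WT, *anti-3*-A and *OX*-H. The gene was at 25.1% of its WT mean in *anti-3* and at 39.2% in *OX*.

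POPTR_0006s02390 had 12.2, 12.1 and 14.0 FPKM in *OX*-H, 5.34, 4.99 and 5.84 FPKM in *OX*, 6.25, 6.43 and 4.35 FPKM in *anti-3*-A, 1.19, 1.18 and 0.737 FPKM in *anti-3* and 6.49, 5.34 and 5.75 FPKM in WT. The *OX*, *anti-3*-A and WT libraries overlapped, *anti-3* lay below all of them and *OX*-H above. Neighbours in that middle range did not differ beyond their spread. The *anti-3* values rest on 32, 29 and 22 reads.

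POPTR_0545s00210 was the least abundant of the 4 in every group. It had 3.65, 3.51 and 3.66 FPKM in *OX*-H, 3.16, 2.93 and 2.62 FPKM in *OX*, 2.42, 3.12 and 3.02 FPKM in *anti-3*-A, 0.527, 0.784 and 1.26 FPKM in *anti-3* and 3.19, 3.30 and 3.89 FPKM in WT. The *anti-3* libraries stood apart below the other 12, which ran from 2.42 to 3.89 FPKM. With 14, 19 and 37 reads in *anti-3*, it is the gene with the largest counting error.

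**Figure D1:**
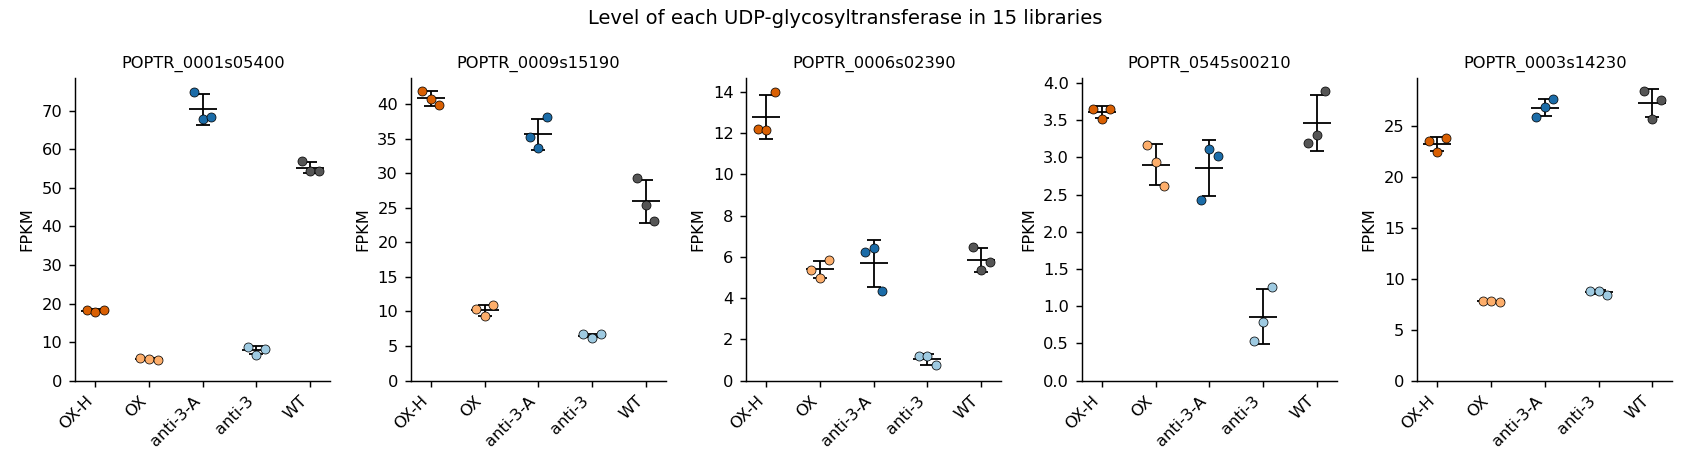
FPKM (vertical axes, each from 0) of the 4 UGTs and of POPTR_0003s14230, the UGT the study names for *OX*, in the 15 libraries. Points are libraries, the bar and whiskers are the mean ± SD of 3. In *OX*, POPTR_0001s05400 and POPTR_0009s15190 lie below WT, and POPTR_0006s02390 overlaps the WT libraries through its highest *OX* library.

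Summed, the 4 genes reached 75.4 ± 1.03 FPKM in *OX*-H, 24.1 ± 1.05 in *OX*, 115 ± 3.92 in *anti-3*-A, 16.2 ± 1.24 in *anti-3* and 90.5 ± 4.77 in WT (SD, n = 3 each). The sum followed mainly POPTR_0001s05400 and POPTR_0009s15190. POPTR_0001s05400 made up 61.4% of the sum in *anti-3*-A, 48.1% in *anti-3* and 61.1% in WT, against 24.1% in *OX*-H and 23.3% in *OX*. Its share was thus about as low in *OX*-H as in *OX*, although the sum in *OX*-H was 83.2% of that in WT. POPTR_0009s15190 was the largest part in *OX*-H, at 54.2%, and POPTR_0006s02390 made up 22.4% in *OX* against 6.47% in WT.

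**Figure D2:**
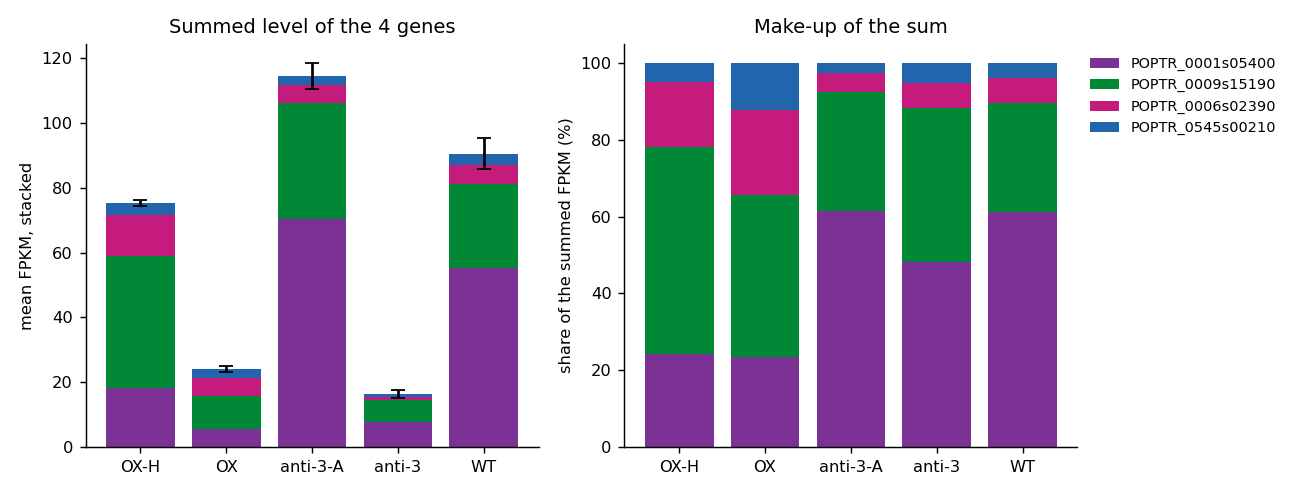
Left, mean FPKM of the 4 UGTs stacked by group, with whiskers for the SD of the sum over 3 libraries. Right, each gene's mean share of the sum in percent. The sum is 16.2 FPKM in *anti-3* and 90.5 FPKM in WT, and the share of POPTR_0001s05400 is 24.1% in *OX*-H and 61.1% in WT.

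Fold changes were taken on the log2(FPKM + 1) scale, which understates the change of low genes, and tested with limma on 24694 genes. A differentially expressed gene (DEG) had an adjusted p below 0.001 and a log2 fold change past 1.5, and a second, looser call was an adjusted p below 0.05 at any fold. In *anti-3* against WT, which chose the members, the log2 fold changes were −2.68 for POPTR_0001s05400, −1.83 for POPTR_0009s15190, −1.76 for POPTR_0006s02390 and −1.28 for POPTR_0545s00210. POPTR_0545s00210 alone was short of the fold limit of 1.5, and with a smaller pseudocount it was past it (−1.58 at 0.5 and −1.96 at 0.1). The 4 genes had a median of −1.80, beside −0.26 over all genes tested.

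*OX* was set against WT to see whether the same genes differed in overexpressing cells. POPTR_0001s05400 fell by 3.09 on the log2 scale (adjusted p = 8.5e-15). POPTR_0009s15190 fell by 1.26 (adjusted p = 6.6e-10) and was no DEG. POPTR_0006s02390 differed by −0.10 (95% interval −0.38 to 0.17, adjusted p = 0.48), with overlapping libraries. POPTR_0545s00210 differed by −0.19 (95% interval −0.47 to 0.08, adjusted p = 0.19), with all 3 *OX* libraries below those of WT. Thus 1 of 4 was a lowered DEG where 5.04% of all tested genes were, and 2 of 4 passed the looser call where 46.7% of all tested genes did, which is near the background. This comparison shares its WT libraries with the one that chose the genes.

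The 2 transgenic lines were also set against each other. In *OX* against *anti-3*, the log2 fold changes were −0.41 for POPTR_0001s05400, 0.57 for POPTR_0009s15190, 1.66 for POPTR_0006s02390 and 1.09 for POPTR_0545s00210. POPTR_0001s05400 was thus the only one of the 4 lower in *OX* than in *anti-3*, in every library. The *anti-3* libraries are those the genes were chosen on, so higher values elsewhere were favoured, no p is given and nothing is read from the calls. These were 1 raised DEG, POPTR_0006s02390, where 1.9% of all tested genes were, and 4 of 4 by the looser call, where 64.1% were.

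AsA treatment of *anti-3* was followed by higher levels of all 4 genes in every library. In *anti-3*-A against *anti-3*, the log2 fold changes were 3.02 for POPTR_0001s05400, 2.28 for POPTR_0009s15190, 1.71 for POPTR_0006s02390 and 1.07 for POPTR_0545s00210. The first 3 were DEGs, where 2.73% of all tested genes were raised DEGs. By the looser call 4 of 4 were raised, where 51.8% of all tested genes were. Nothing is read from either count or from the 4 being higher in every library, because the low *anti-3* libraries chose the genes. The median was 1.996 for the 4 and 0.27 for all tested genes.

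Against WT, *anti-3*-A held 0 DEGs among the 4 by limma-trend, where 0.458% of all tested genes were DEGs in either direction. By voom on the recovered reads it also held 0, where 1.08% of all tested genes were DEGs. By limma-trend, 2 of the 4 had an unadjusted p below 0.05. POPTR_0001s05400 was 0.34 higher in *anti-3*-A on the log2 scale (adjusted p = 0.0022) and POPTR_0009s15190 was 0.45 higher (adjusted p = 4.2e-04), each in all 3 libraries. POPTR_0006s02390 differed by −0.05 (95% interval −0.33 to 0.22, adjusted p = 0.79) and POPTR_0545s00210 by −0.21 (95% interval −0.49 to 0.06, adjusted p = 0.22). So 2 of 4 passed the looser call upwards, against 20% of all tested genes. The WT libraries used here are also those of the comparison that chose the genes. Whether recovery in *anti-3*-A helped to choose the 4 is not stated by the study.

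H2O2 treatment of *OX* is the comparison within a line that shares no library with the one that chose the genes. POPTR_0009s15190 rose by 1.91 on the log2 scale (adjusted p = 6.4e-12) and POPTR_0001s05400 by 1.54 (adjusted p = 4.3e-11), and both were DEGs. POPTR_0006s02390 rose by 1.11 (adjusted p = 1.3e-06), below the fold limit. POPTR_0545s00210 was 0.24 higher (95% interval −0.04 to 0.52, adjusted p = 0.11). The count was 2 of 4 where 2.96% of all tested genes were raised DEGs, and 3 of 4 by the looser call where 43.3% of all tested genes were. POPTR_0001s05400 stands at the limit, and with library medians aligned its fold change was 1.49 and it was no DEG. The median was 1.32 for the 4 and 0.14 for all tested genes.

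In *OX*-H against WT the 4 genes went different ways. POPTR_0001s05400 fell by 1.55 on the log2 scale (adjusted p = 6.9e-11) and was the only DEG of the 4, where 6.38% of all tested genes were DEGs in either direction. With library medians aligned it was at −1.45 and no longer a DEG. POPTR_0006s02390 rose by 1.01 (adjusted p = 4.3e-06) and POPTR_0009s15190 by 0.64 (adjusted p = 3.2e-06). POPTR_0545s00210 differed by 0.05 (95% interval −0.23 to 0.32, adjusted p = 0.75). By the looser call 3 of 4 differed, which is close to the 70.2% of all tested genes. The WT libraries here are those of the comparison that chose the genes, so values below WT were favoured.

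**Figure D3:**
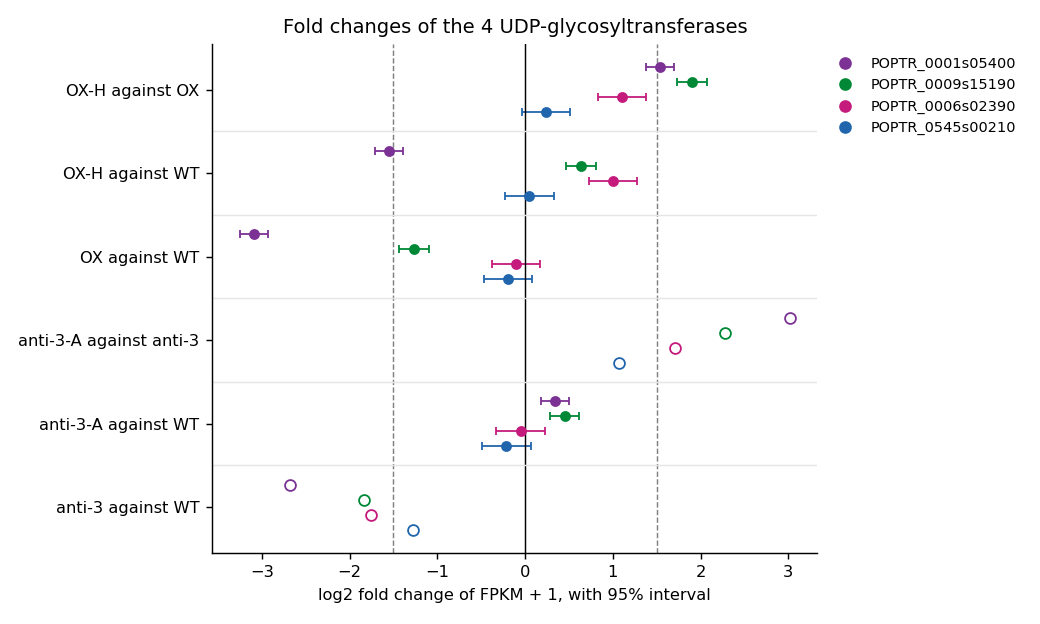
Log2 fold change of FPKM + 1 (horizontal axis) of the 4 UGTs in 6 comparisons (rows), with 95% intervals from limma. Open points have no interval because the low *anti-3* libraries chose the genes, and dashed lines mark the fold limit of 1.5. POPTR_0001s05400 lies at −1.55 in *OX*-H against WT, where POPTR_0006s02390 lies at 1.01.

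The 2 treated groups were compared directly, again without a library of the comparison that chose the genes. The study also grouped genes by their recovery in *anti-3*-A, and whether that helped to choose the 4 is not stated. In *OX*-H against *anti-3*-A, POPTR_0001s05400 was 1.90 lower on the log2 scale (adjusted p = 6.4e-12) and was the only lowered DEG of the 4, where 2.56% of all tested genes were lowered DEGs. POPTR_0006s02390 was 1.06 higher (adjusted p = 2.4e-06). POPTR_0009s15190 was 0.19 higher (adjusted p = 0.043, and 0.0020 to 0.098 over the alternatives). It no longer passed without *OX*-H replicate 1, 2 or 3 (adjusted p = 0.11, 0.080 and 0.058) or without *anti-3*-A replicate 1 or 2 (adjusted p = 0.089 and 0.15), so the call rests on nearly every library. POPTR_0545s00210 was 0.26 higher without passing (adjusted p = 0.083, and 0.020 to 0.18 over the alternatives). The looser call took in 3 of 4, against 71% of all tested genes.

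In *OX* against *anti-3*-A, the last comparison of this kind, POPTR_0001s05400 was 3.43 lower (adjusted p = 3.0e-15) and POPTR_0009s15190 was 1.71 lower (adjusted p = 1.6e-11). Both were lowered DEGs, where 5.26% of all tested genes were. POPTR_0006s02390 differed by −0.05 (adjusted p = 0.73) and POPTR_0545s00210 by 0.02 (adjusted p = 0.88), and both had overlapping libraries. In *OX*-H against *anti-3*, POPTR_0006s02390 and POPTR_0009s15190 were raised DEGs, at 2.76 and 2.48, where 7.32% of all tested genes were, and POPTR_0545s00210 and POPTR_0001s05400 were at 1.33 and 1.12. The looser call took in 4 of 4, against 78.5% of all tested genes. This last comparison uses the *anti-3* libraries that chose the genes, and nothing is read from its calls.

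Across the 15 libraries, the 4 genes were alike to different degrees. On log2(FPKM + 1), Pearson's r was 0.88 between POPTR_0006s02390 and POPTR_0545s00210, and 5.19% of all tested genes were at least as much like the first and 0.93% like the second. It was 0.82 between POPTR_0009s15190 and POPTR_0006s02390, where the shares were 15.1% and 9.54%. It was 0.77 between POPTR_0001s05400 and POPTR_0009s15190 (24.7% and 19.9%) and 0.75 between POPTR_0009s15190 and POPTR_0545s00210 (21.3% and 8.53%), so many genes were as alike as these. POPTR_0001s05400 was least like the rare pair, with r of 0.35 to POPTR_0006s02390 (49.3% and 41.9%) and 0.45 to POPTR_0545s00210 (44.9% and 35.0%). These correlations are descriptions over 5 group means with 3 libraries each, the points share their libraries, and the low *anti-3* libraries that chose the genes are among them.

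Among the other 11 genes that the study names, the one most like POPTR_0001s05400 was POPTR_0005s15850, a phosphatidylinositol phosphate kinase (r = 0.98). The most like POPTR_0009s15190 was POPTR_0016s05500, an alkaline alpha-galactosidase, an enzyme that takes galactose off raffinose-type sugars (r = 0.97). POPTR_0007s09470, which the study annotates as a phosphatase family protein, was the most like both POPTR_0006s02390 (r = 0.87) and POPTR_0545s00210 (r = 0.88). The study names each of these as lowered in *anti-3*, as it does the 4, so a high r was favoured. Each is also the highest of 11, and nothing is read from these r values. Over all tested genes, POPTR_0005s09240 and POPTR_0007s11960 had the highest mean r to the 4, each 0.86. POPTR_0005s09240 had 25.6 FPKM in *OX*-H, 13.4 in *OX*, 23.5 in *anti-3*-A, 8.99 in *anti-3* and 22.7 in WT.

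POPTR_0003s14230, the UGT named by the study for *OX*, resembled POPTR_0001s05400 (r = 0.92) and POPTR_0009s15190 (r = 0.92) more than POPTR_0006s02390 (r = 0.60) and POPTR_0545s00210 (r = 0.61). Its mean r to the 4 was 0.76, and 7.40% of all tested genes were at least as alike. Like the 4, it was low in *anti-3*, at 31.8% of its WT mean. It had 23.2 ± 0.71 FPKM in *OX*-H, 7.76 ± 0.077 in *OX*, 26.8 ± 0.85 in *anti-3*-A, 8.65 ± 0.21 in *anti-3* and 27.2 ± 1.38 in WT (SD, n = 3 each). In *OX*-H it was at 85.3% of its WT mean. The study names this gene as changed in *OX* and normalized in *OX*-H, so both features were favoured by the choice. Nothing is read from its difference from POPTR_0001s05400 in *OX*-H.

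The 4 genes are a small part of the UGTs that the study lists. A further 85 UGTs could be read in its lists of genes raised in *anti-3* (37), raised in *OX* (71) or in both (23), and 68 of these passed the filter on low values. That list was picked by the study on these samples and for a rise, so its direction is not independent evidence. In *anti-3* against WT, 29 of the 68 were raised DEGs, where 5.59% of all tested genes were, and 0 were lowered DEGs by limma (3 lower at an unadjusted p below 0.05). In *OX* against WT, 28 were raised DEGs, where 6.5% of all tested genes were, and 1 was lowered. The median log2 fold change of the 68 was 1.43 in *anti-3* and 1.37 in *OX* against WT, beside −1.80 and −0.73 for the 4.

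In treated against untreated cells of the same line, the median of the 68 was on the other side of 0 from that of the 4. In *anti-3*-A against *anti-3*, 29 of the 68 were lowered DEGs, where 5.69% of all tested genes were, and their median was −1.35 beside 1.996 for the 4. In *OX*-H against *OX*, 24 were lowered DEGs, where 5.18% of all tested genes were, and their median was −1.09 beside 1.32 for the 4. In *OX*-H against WT, 14 of the 68 were raised DEGs, where 3.99% of all tested genes were, and 3 were lowered. Their median there was 0.19, beside 0.35 for the 4. The 68 were listed as raised against WT in *anti-3* or *OX*, so falls from those libraries and rises against WT were favoured. Nothing is read from these counts and medians of the 68.

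The 3 most abundant of the other UGTs were ranked by their mean over the 15 libraries, in a list picked for a rise in *anti-3* or *OX*. They were above each of the 4 in *OX* and *anti-3*, but below POPTR_0009s15190 in *OX*-H and below POPTR_0001s05400 in *anti-3*-A and WT. POPTR_0001s31040 averaged 11.9 FPKM in *OX*-H, 316 in *OX*, 51.1 in *anti-3*-A, 494 in *anti-3* and 24.8 in WT. POPTR_0001s31120 averaged 10.8 FPKM in *OX*-H, 299 in *OX*, 40.3 in *anti-3*-A, 460 in *anti-3* and 22.3 in WT. POPTR_0009s10180 averaged 15.2 FPKM in *OX*-H, 186 in *OX*, 40.3 in *anti-3*-A, 360 in *anti-3* and 19.99 in WT. In all 3 genes *anti-3* was highest and *OX*-H lowest. The order against the 4 does not hold for every listed UGT. POPTR_0015s08330 averaged 47.1 FPKM in *OX*-H, 81.4 in *anti-3*-A and 67.9 in WT, above each of the 4 in these groups.

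The mean r to the 4 was above 0 for 14 of the 68, or 20.6%, against 65.5% of all tested genes, and its median was −0.70 against 0.29. Nothing is read from these shares, because the 4 were chosen as low and the 68 as raised on libraries among these 15. POPTR_0009s10190 was the least like the 4 (mean r −0.85), with 1.48 FPKM in *OX*-H, 7.43 in *OX*, 1.87 in *anti-3*-A, 15.6 in *anti-3* and 1.36 in WT. POPTR_0004s09690 was the most like them (mean r 0.34), with 5.49 FPKM in *OX*-H, 1.99 in *OX*, 0.447 in *anti-3*-A, 0.377 in *anti-3* and 0.750 in WT. Its mean was highest in *OX*-H, as were those of POPTR_0009s15190, POPTR_0006s02390 and POPTR_0545s00210, and its r to POPTR_0001s05400 was −0.27. Against WT it was 1.90 higher in *OX*-H on the log2 scale. No p is given, because the gene was picked on these libraries from a list of raised genes.

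**Figure D4:**
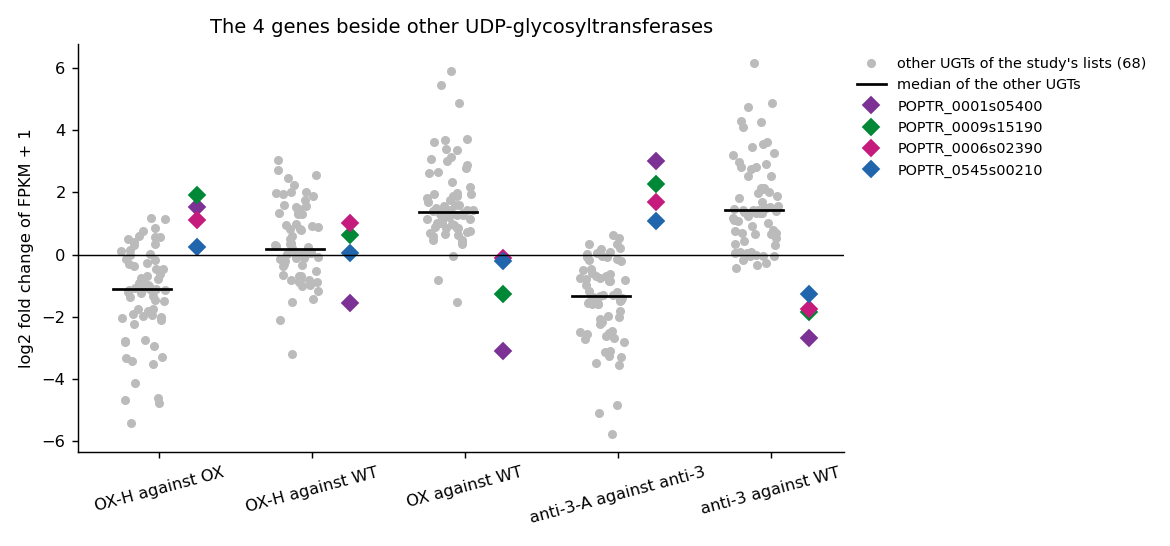
Log2 fold change of FPKM + 1 (vertical axis) of the 68 other UGTs (grey points, with their median as a black bar) and of the 4 UGTs (coloured diamonds) in 5 comparisons. In *OX*-H against *OX* the median of the 68 is −1.09 and that of the 4 is 1.32. The 68 were listed by the study as raised in *anti-3* or *OX*.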

How the data were processed

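RNA of 15 libraries of suspension cells was sequenced, 3 in each of 5 groups taken from the sample labels. The authors deposited FPKM values for 42635 genes, mapped to a *P. trichocarpa* annotation. The sources name different tools for this (SOAPaligner/SOAP2 in the paper's methods, Bowtie2 2.2.3, TopHat2 2.0.12 and HTSeq 0.6.1 in the submitters' processing notes), and neither states the genome release, the strand setting or how multi-mapping reads were treated. The authors' tables of differential expression hold fold changes and p-values and were not used. The members and lists were chosen with earlier results of these data known.

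Whole reads were worked back from the steps between low FPKM values (Python 3.11.15, numpy 2.4.6, pandas 2.3.3). This gave whole numbers for all 445124 nonzero values, at a tolerance of 0.0001 reads that widened in proportion for high counts. Genes with at least 1 FPKM in at least 3 libraries entered limma-trend (limma 3.58.1, R 4.3.3) as log2(FPKM + 1), in 1 fit of all 15 libraries without covariates, with Benjamini-Hochberg adjustment within each of 10 comparisons. The procedure was tested on simulated data. Named were the 4 members, POPTR_0003s14230, for each member the most similar of 11 other genes the study names, the 2 tested genes with the highest mean r, and of the other UGTs the 3 most abundant, the most and the least similar. Alternatives were pseudocounts, filters on low values, scaling by library medians or quantiles, voom on the recovered reads, the looser call, a replicate block, fits of the compared groups alone and leaving out each library. Figures were drawn with matplotlib 3.10.9.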

Additional observations from a re-analysis of the deposited data

How the results depend on the processing

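Leaving out each library in turn changed no DEG call of the 4 genes, and it changed the looser call in 5 of 240 fits, all of POPTR_0009s15190 in *OX*-H against *anti-3*-A (adjusted p = 0.058 to 0.15 by limma). Of 240 such fold changes, 234 stayed on the same side of the DEG limits and 6 changed sign, all of values within the spread: POPTR_0006s02390 ran from −0.14 to 0.10 in *anti-3*-A against WT and from −0.20 to 0.035 in *OX* against *anti-3*-A, and POPTR_0545s00210 from −0.062 to 0.075 in *OX* against *anti-3*-A. Of 430 fold changes under the other alternatives, 398 kept their direction and call, 25 gained a call and 3 lost one. The looser call is among these alternatives, so many of the gains come from its threshold alone, at unchanged fold changes. The remaining gains came with a smaller pseudocount or voom, all in comparisons that include *anti-3*. The other 4 changed sign, namely POPTR_0006s02390 in *OX* against WT (0.044 with library medians aligned, 0.081 with quantile normalization) and in *OX* against *anti-3*-A (0.11 and 0.16). With library medians aligned, 1 of the 4 genes was a raised DEG in *OX*-H against *OX* (2.65% of all tested genes) and 0 were DEGs in *OX*-H against WT (6.5%), and quantile normalization left 1 in *OX*-H against *OX* (2.64%). The gene lost was POPTR_0001s05400, at 1.49 and 1.48 in *OX*-H against *OX* and at −1.45 in *OX*-H against WT. A pseudocount of 0.1 and voom on the recovered reads each gave 2 raised DEGs in *OX* against *anti-3* (3.79% and 4.05% of all tested genes). The looser call, in either direction, gave 2 of 4 in *OX* against WT (78.4% of all tested genes), 2 in *anti-3*-A against WT (37.5%), 3 in *OX*-H against WT (70.2%), 4 in *OX* against *anti-3* (64.1%), 3 in *OX*-H against *anti-3*-A (71%) and 4 in *OX*-H against *anti-3* (78.5%). Nothing is read from the counts against *anti-3*, whose libraries chose the genes. Libraries with the same replicate number did not deviate together (r −0.065 to 0.055 over 30 pairs), and a fit with the replicate block changed no call, with 2 DEGs in *OX*-H against *OX*. Read number limits POPTR_0545s00210 most, and it was not tested at a minimum of 5 FPKM.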
